A study of Homo sapiens with 18 samples.

Results

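The regions described here are 1760 peaks of the AML1-ETO fusion protein that both of its antibodies called after miR-130a knockdown and that neither antibody had called in control cells. They were selected on the deposited peak lists themselves: an interval of the authors' knockdown-unique list was kept if it overlapped, by at least 1 bp, no control anti-ETO peak and no control anti-Flag peak. They make up 38.1% of the 4617 knockdown-unique intervals (95% Wilson interval 36.7 to 39.5) and 12.8% of the 13712 intervals that both antibodies called in knockdown cells. Because the calls chose them, their presence in knockdown and absence in control is a description and is not tested.

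AML1-ETO joins the DNA-binding part of RUNX1 to most of RUNX1T1 (ETO). The fusion still binds RUNX sites and brings corepressors of the NCoR family to them, and it is known in leukaemia for holding myeloid cells in an immature state. MicroRNAs such as miR-130a lower the output of many target messenger RNAs, and the series title links the miR-130a targets to TBL1XR1, a subunit of the NCoR corepressor complex.

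All libraries came from Kasumi-1, an established human acute myeloid leukaemia line with the t(8;21) translocation, here carrying AML1-ETO with a Flag tag. The 4 groups behind the lists were control and miR-130a knockdown cells, each profiled by CUT&RUN with anti-ETO and with anti-Flag. There were 3 libraries per group, and mouse IgG libraries in both conditions brought the total to 18. GFP-positive cells were sorted 3 days after transduction and 200000 were used per condition; the control construct is not given in the sources used here. An anti-ETO antibody can also recognise RUNX1T1 without the fusion, and anti-Flag recognises the tagged fusion, so each interval here had a call from both. There is 1 list per antibody and condition, and the lists give positions without heights. The spread between the 3 libraries, the depth behind a call and the identity of the cells by their marker genes could therefore not be measured.

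The comparison addressed which sites AML1-ETO occupies when miR-130a is reduced. Of the knockdown-unique intervals that were not members, 2542 had a control anti-Flag call alone, 269 a control anti-ETO call alone and 46 a call by both. The mirror class of the control cells, intervals unique to control with no call by either antibody in knockdown, held 617 peaks, so that members were 2.85 times as many. The knockdown lists were also longer, with 1.58 times as many anti-ETO and 1.12 times as many anti-Flag peaks as the control lists. Each knockdown list was then cut to its widest peaks, as many as its control list had. This left 678 members, and the mirror class held 1547 peaks, so that members were then the smaller class. Since the control lists stayed whole, such a cut can only lower the first number and raise the second. The changed order of the classes is therefore a description and was not tested.

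Sequences are shown for promoters that lay wholly inside wide members, because they let the binding sites of RUNX1 be looked for directly. The 250 bases before the gene start are printed 5′ to 3′ on the strand of the gene, from the RefSeq promoter table of GRCh38.p14. Of the 10 protein-coding promoters in that table that the widest members overlapped, 8 lay wholly inside the member, so the counts that follow include some bases outside one. Of the 10, 9 held no RUNX hexamer (TGTGGT or TGCGGT on either strand) in these bases and 8 held a GC box (GGGCGG on either strand). Of all 22078 protein-coding promoter windows in that table, which also take in some bases after the start, 19% held a RUNX hexamer and 56.3% a GC box. A lack of the hexamer is thus common among promoters, and the counts of these 10 are a description and were not tested. The 5 shown were picked after their values were seen. Capitals mark the RUNX hexamer in FCER1G, which begins 42 bases before the start, and GC boxes in the others; FCGR1A holds neither.
FCER1G: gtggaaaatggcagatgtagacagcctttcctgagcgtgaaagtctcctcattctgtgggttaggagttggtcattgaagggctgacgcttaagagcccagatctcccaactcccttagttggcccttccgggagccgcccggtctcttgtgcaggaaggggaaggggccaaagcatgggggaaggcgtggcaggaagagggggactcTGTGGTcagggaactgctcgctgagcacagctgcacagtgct
FCGR1A: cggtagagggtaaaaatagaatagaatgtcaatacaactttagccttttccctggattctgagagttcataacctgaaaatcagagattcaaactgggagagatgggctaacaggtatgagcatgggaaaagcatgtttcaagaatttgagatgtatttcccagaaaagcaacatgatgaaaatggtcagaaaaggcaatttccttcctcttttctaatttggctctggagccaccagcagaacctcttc
KLF2: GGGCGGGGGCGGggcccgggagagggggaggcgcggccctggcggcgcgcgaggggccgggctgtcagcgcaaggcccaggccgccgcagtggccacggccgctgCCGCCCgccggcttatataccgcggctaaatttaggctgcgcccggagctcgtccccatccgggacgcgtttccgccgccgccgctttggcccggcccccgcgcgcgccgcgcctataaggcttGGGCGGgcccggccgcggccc
MPP1: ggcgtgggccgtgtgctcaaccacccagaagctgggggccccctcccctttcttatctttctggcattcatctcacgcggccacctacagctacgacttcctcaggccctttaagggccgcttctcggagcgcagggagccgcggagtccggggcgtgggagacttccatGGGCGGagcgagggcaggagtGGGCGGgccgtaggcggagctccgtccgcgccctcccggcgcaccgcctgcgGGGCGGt
R3HDM4: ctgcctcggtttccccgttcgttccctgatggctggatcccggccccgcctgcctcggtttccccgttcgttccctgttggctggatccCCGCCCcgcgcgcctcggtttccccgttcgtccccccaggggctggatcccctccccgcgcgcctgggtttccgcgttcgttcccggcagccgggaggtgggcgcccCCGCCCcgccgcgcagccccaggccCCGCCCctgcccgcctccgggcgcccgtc

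FCER1G encodes the signalling chain shared by several Fc receptors of myeloid cells. The stretch shown is chr1:161215045-161215294 on the plus strand, and the member across it (chr1:161214731-161215592) was 862 bp wide, with an anti-ETO peak of 589 bp and an anti-Flag peak of 434 bp. Its nearest control peak lay 4512 bp away. FCGR1A encodes the high-affinity receptor for IgG of monocytes and macrophages; its stretch is chr1:149782444-149782693, plus strand. The member there was 953 bp wide (chr1:149782205-149783157) and lay 4410 bp from a control peak. It had 2 anti-ETO peaks, the wider of 692 bp, and an anti-Flag peak of 410 bp. FCGR1A has near-identical copies on chromosome 1, so reads may be shared among them and this call is uncertain.

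KLF2, a zinc-finger transcription factor of blood and endothelial cells, had a member of 1030 bp over its promoter (chr19:16324331-16325360). Its stretch is chr19:16324576-16324825, plus strand, with 4 GC boxes. The anti-ETO peak spanned all 1030 bp, the anti-Flag peak 662 bp, and the nearest control peak lay 2174 bp away. MPP1, a scaffold protein of the red cell membrane, had a member of 1244 bp (chrX:154804736-154805979) made by an anti-Flag peak of that width and an anti-ETO peak of 542 bp. Its stretch is chrX:154805486-154805735, minus strand, and the nearest control peak lay 34893 bp from the member. At R3HDM4 (chr19:913220-913469, minus strand) the member spanned 1624 bp and a control peak lay 399 bp away; its stretch holds 3 GC boxes. Among these 5 members the gap to a control peak thus ran from 399 to 34893 bp.

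Members were narrow sites at which the peaks of both antibodies had like median widths and overlapped in part or were nested. Each of the 1760 intervals had a peak of both antibodies in knockdown, and 1733 had exactly 1 of each. In all 1733 the interval was the union of the pair. The anti-ETO peak had a median width of 351 bp (quartiles 251 and 445) and the anti-Flag peak 350 bp (266 and 468), and anti-ETO was the wider in 51.7%. The centres of the pair lay a median of 55 bp apart, and within 100 bp in 68.9%. The shared length was 269 bp in the median and 100 bp at the least. The anti-Flag peak lay wholly inside the anti-ETO peak in 512 of the 1733, and the anti-ETO peak inside the anti-Flag peak in 384.

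**Figure D1:**
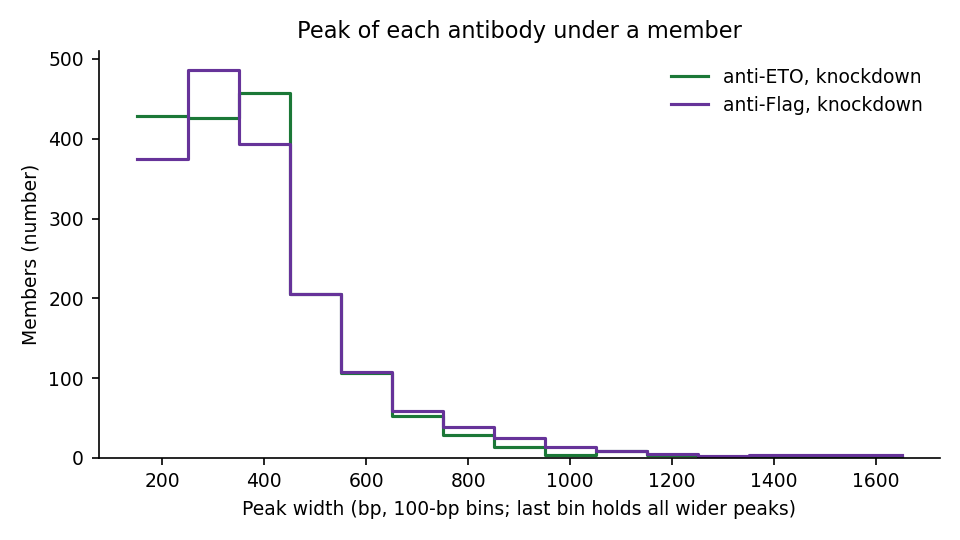
Widths of the knockdown anti-ETO and anti-Flag peaks under the 1733 members with exactly 1 peak of each antibody, as numbers of members per 100-bp bin. The outlines of the antibodies lie close together, with medians of 351 and 350 bp.

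This balance between the antibodies was not seen in every class of interval called by both in knockdown. Where control had an anti-Flag call alone, the median widths were 422 bp for anti-ETO and 424 bp for anti-Flag, and anti-ETO was wider in 49.3%. Where control had an anti-ETO call alone, they were 441 and 310 bp, and anti-ETO was wider in 82.8%. In intervals shared by both conditions they were 724 and 486 bp, and anti-ETO was wider in 78.7%. In the control-unique mirror class the control peaks measured 307 bp for anti-ETO and 352 bp for anti-Flag. These widths describe the lists and were not tested, since width also decides how easily an interval meets a control peak.

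Whole member intervals had a median width of 437 bp and ranged from 174 to 2701 bp. The median was 572 bp where control had an anti-Flag call alone, 496 bp where it had an anti-ETO call alone, 415 bp in the mirror class and 1047 bp in shared intervals. Members covered 866 kb, which is 31.1% of the length of the knockdown-unique list.

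Although no member overlapped a control peak, many lay beside one. The gap to the nearest control peak had a median of 2239 bp (quartiles 517 and 7926). It was at most 1 kb for 649 members (36.9%, 34.7 to 39.2) and at most 10 kb for 1386 (78.8%, 76.8 to 80.6), while 35 members were over 100 kb from any control peak. Gaps of 100 bp or less were found for 27. In the mirror class the gap to the nearest knockdown peak had a median of 8767 bp, and 317 of 617 (51.4%, 47.4 to 55.3) lay within 10 kb. Each control list has fewer peaks than the knockdown list of the same antibody. The control anti-Flag list nevertheless covers more sequence (13534459 bp against 13189388 bp in knockdown). The distance also extends the measure that chose the members, so no test was made.

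**Figure D2:**
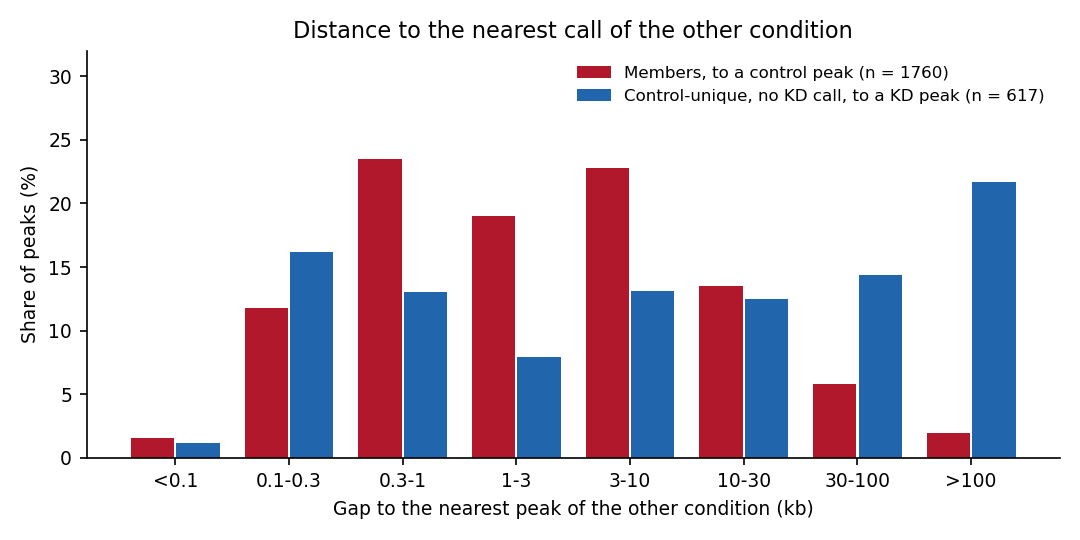
Share of peaks by the gap, in kb, to the nearest peak of the other condition, for the 1760 members (to a control peak) and the 617 control-unique peaks with no knockdown call (to a knockdown peak). The tallest bars of the members are at 0.3 to 1 kb (23.5%) and 3 to 10 kb (22.8%), and 21.7% of the control-unique class but 1.99% of members lie beyond 100 kb.

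The nearest control peak was an anti-Flag peak for 1341 members (76.2%), an anti-ETO peak for 370, and equally near for 49. Anti-Flag gave 61.9% of all control peaks. In the mirror class the nearest knockdown peak was an anti-ETO peak for 514 (83.3%), where anti-ETO gave 46.5% of all knockdown peaks. Intervals shared by both conditions were also close to members: 983 members (55.9%) lay within 10 kb of one, with a median of 7220 bp. This was so for 71.5% of the class with a control anti-Flag call alone, for 35.3% of that with a control anti-ETO call alone and for 25.8% of the mirror class.

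At the limit of the rule, the members closest to a control peak were 2 bp away in NOTCH2 (chr1:120067684-120067978) and 6 bp away on chromosome 16 (57537369 to 57538018). The knockdown-unique intervals just outside it overlapped a control peak by 7 bp, on chromosome 5 (181187112 to 181187633) and chromosome 9 (137577468 to 137578153). Of the intervals outside the rule, 53 overlapped by less than 100 bp.

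The largest group of members lay inside genes and away from gene starts and ends. This was not particular to members, as the share was 47.8% where control had an anti-Flag call alone. It was 24.9% with a control anti-ETO call alone, 39.4% in the mirror class and 28.8% in shared intervals. Of the 1760 centres, 877 (49.8%, 47.5 to 52.2) were inside a gene and over 1 kb from any gene boundary (a start or an end), 525 (29.8%, 27.7 to 32.0) were within 1 kb of a boundary and 358 (20.3%, 18.5 to 22.3) were outside genes. By overlap of the whole interval in place of its centre, 1122 members (63.8%) met a protein-coding gene and 227 (12.9%) a long non-coding RNA gene. No annotated gene was met by 476 (27.0%), which can include members outside genes but within 1 kb of a boundary. None of the members overlapped a tRNA gene, with a Wilson interval that reaches 0.218%. These overlaps are given for members alone, with no share for other classes or the genome, so they are a description and were not tested.

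Near a boundary lay a smaller share of members than of mirror-class peaks of the control cells, of which 255 of 617 (41.3%) qualified. The difference was -11.5 percentage points (95% Newcombe interval -15.9 to -7.10, Fisher's exact test over peaks, two-sided, p adjusted over 5 comparisons = 6.7e-07). On 15 of the 20 chromosomes with at least 10 peaks of both classes the share was lower in members, and on 5 it was higher. With a boundary distance of 2.5 kb the difference was -2.62 points and no longer passed the test (Fisher's exact p = 0.282). With the knockdown lists cut it was -26.7, against a mirror class that then held 1547 peaks. That class then included control-unique peaks with a call in the full knockdown lists, of which 60.2% were near a boundary. The cut run therefore does not bear on the difference. Members were filtered against control peaks and the mirror class against knockdown peaks. Shared intervals were near a boundary in 60.3%, so this share is not independent of the filter. With peaks of the other condition within 500 bp counted as calls, it was 24.4% in members and 35.4% in the mirror class. The part of the filter in the difference was not tested. Peaks of a list are not replicates, so these p-values compare lists and say nothing of other libraries.

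Against the other knockdown-unique intervals, of which 951 of 2857 (33.3%) were near a boundary, the difference was -3.46 points (-6.18 to -0.69, Fisher's exact test, adjusted p = 0.0247). The classes inside that group were unlike each other. The share was 29.9% where control had an anti-Flag call alone, a difference of -0.03 points with an interval of -2.79 to 2.76, and 61.3% where control had an anti-ETO call alone, a difference of -31.5 points (-37.5 to -25.2). The pooled difference ended its call under 4 of 8 alternatives, and was -10.6 points when a control peak within 500 bp also counted as a call. In shared intervals 60.3% were near a boundary. The calls that define the classes thus bear on this share here too, and their part in the pooled difference was not tested.

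**Figure D3:**
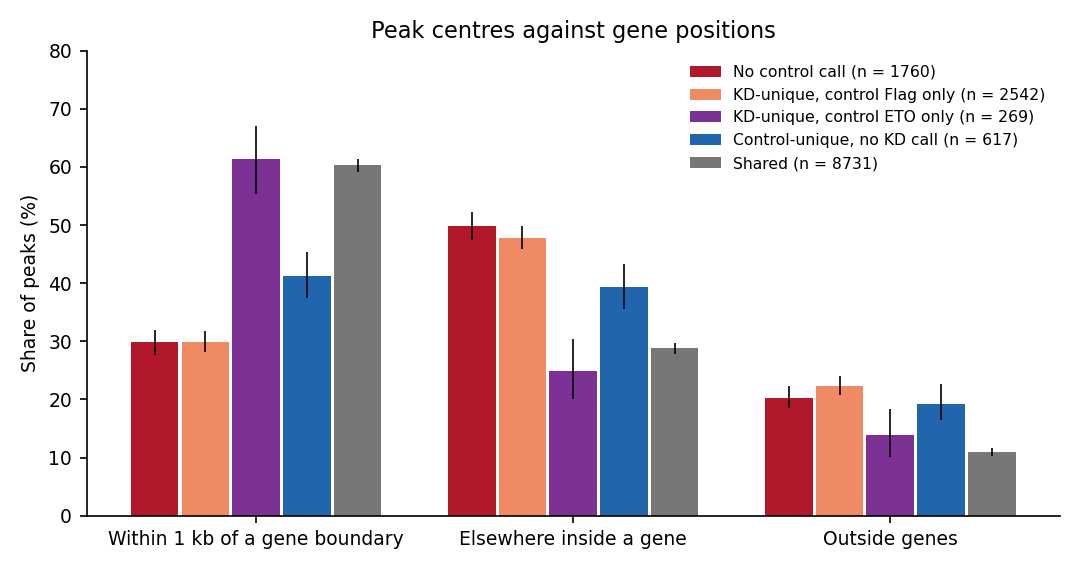
Share of peak centres, in percent with 95% Wilson intervals as bars, within 1 kb of a gene start or end, elsewhere inside a gene, or outside genes, for members and 4 other classes. Members (29.8% near a boundary) sit beside the class with a control Flag call alone (29.9%) and below the mirror class (41.3%) and shared peaks (60.3%).

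Starts could be told from ends with the RefSeq promoter table, which gives strands and holds no window on chromosome 8, so that chromosome was left out. It holds 15743 of the 19974 protein-coding genes, so shares near starts may be too low. Of 1706 members, 372 (21.8%, 19.9 to 23.8) had their centre within 1 kb of a start, 157 of them upstream and 215 at or after it. A further 196 (11.5%) were near a boundary but not near a start in the table. The share near a start was 19.9% with a control anti-Flag call alone, 58.0% with a control anti-ETO call alone, 34.1% in the mirror class and 52.0% in shared intervals. The interval of the difference was -0.62 to 4.44 points for the first of these and -16.6 to -8.10 for the mirror class.

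**Figure D4:**
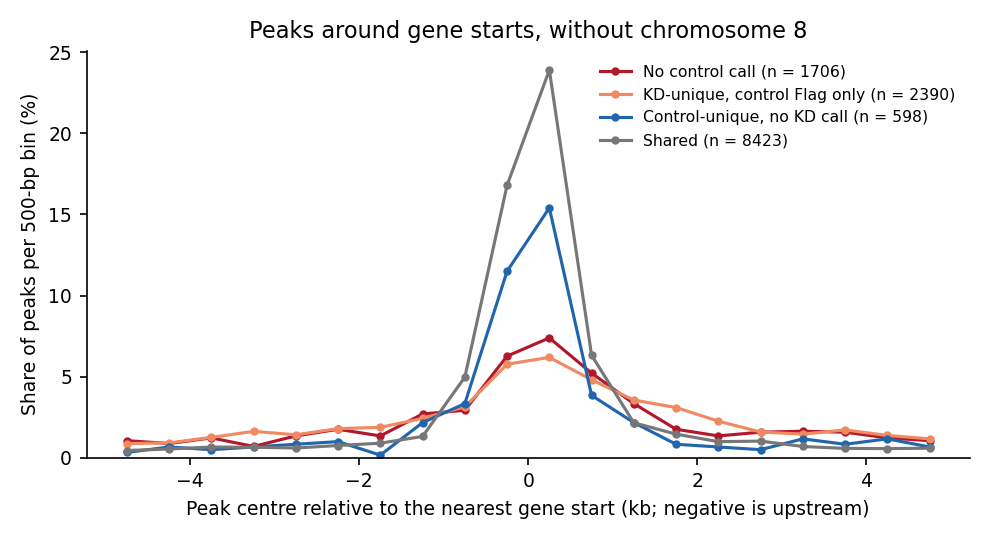
Share of peaks per 500-bp bin, in percent, by the position of the peak centre relative to the nearest gene start in kb, for members, knockdown-unique peaks with a control Flag call alone, control-unique peaks with no knockdown call, and shared peaks. Members show a low summit, with 6.27% just before and 7.39% just after the start.

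At the level of promoters, members overlapped 202 of the 22078 windows of protein-coding genes (0.915%), which belong to 184 genes; a window runs from 250 bases before to 50 after a start. An overlap of 1 bp was enough for a window to count, and the whole window was searched. Of these 202 windows, 91 had at least 150 bp of overlap and 49 lay wholly inside a member. The shares thus describe promoters that members touch and include bases outside members. RUNX hexamers were found in 24 of the 202 windows (11.9%, 8.12 to 17.1). They were found in 79 of the 408 windows overlapped by other knockdown-unique intervals and by no member (19.4%), and in 4187 of all 22078 windows. The difference of -7.48 points (-13.1 to -1.20, Fisher's exact test, adjusted p = 0.0269) did not hold with TGTGGT alone (-2.14 points, Fisher's exact p = 0.438), nor under any of the other 3 alternatives tried. RUNX hexamers stood in 22.7% of windows of the mirror class and in 23.1% of those of shared intervals.

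Member promoters were rich in G and C. Their median GC content was 66.0%, against 66.7% for other knockdown-unique, 64.7% for the mirror class, 68.0% for shared and 62.3% for all windows. GC boxes stood in 74.8% (68.3 to 80.2) of member windows, 77.2% of other knockdown-unique, 75.9% of mirror-class and 78.5% of shared windows, and in 56.3% of all windows. The ETS word CCGGAA stood in 35.1% (28.9 to 42.0) of member windows, 29.4% of other knockdown-unique, 35.5% of mirror-class and 28.4% of shared windows, and 21.1% of all windows. An E-box (CAGCTG or CAGGTG) stood in 36.1% of member windows and 34.0% of all, a CCAAT box in 31.7% and 34.7%, the AP-1 word TGANTCA in 3.47% and 6.16%, and the GATA word AGATAA in 5.94% and 7.93%. All words were searched on both strands over whole windows, so a match may lie outside the peak. Short words match often, and a match is not a bound site. AP-1 words were in 0 of 141 windows of the mirror class, whose Wilson interval reaches 2.65%.

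Members were spread over the chromosomes less evenly than the mirror class. Chromosome 19 held 325 (18.5%), chromosome 17 held 204 (11.6%), chromosome 1 held 172, chromosome 11 held 153 and chromosome 16 held 133. Per 100 protein-coding genes there were 22.4 members on chromosome 19, 17.5 on 17, 15.7 on 22 and 15.6 on 16, against 1.48 on 18, 1.77 on X and 2.07 on 13. The mirror class ranged between 2.55 per 100 genes on chromosome 19 and 4.81 on chromosome 18. Its lowest chromosome was thus the one where members were most frequent, and its highest the one where they were least frequent. That range was narrow, and the value on chromosome 18 rests on 13 mirror-class peaks. The tilt was not particular to members. The class with a control anti-Flag call alone had 29.6 per 100 genes on chromosome 19 and 0.741 on chromosome 18, and shared intervals had 69.8 and 32.6.

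Chromosomes 19, 17, 11 and 16, on which genes lie densely, held 815 members (46.3%) and 134 mirror-class peaks (21.7%), a difference of 24.6 points (20.5 to 28.4). Counting 1 peak per 100 kb window for both classes, it was 18.6 points. Against other knockdown-unique intervals, 1359 of which (47.6%) lay there, the difference was -1.26 points (-4.22 to 1.70), and its sign turned under 2 of 4 alternatives. The 4 chromosomes were picked with earlier results of these lists known, so these shares and differences are a description, with no test. On the 20 chromosomes with at least 20 members, members were between 25.6% (chromosome 8) and 48.9% (chromosome 7) of the knockdown-unique intervals.

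**Figure D5:**
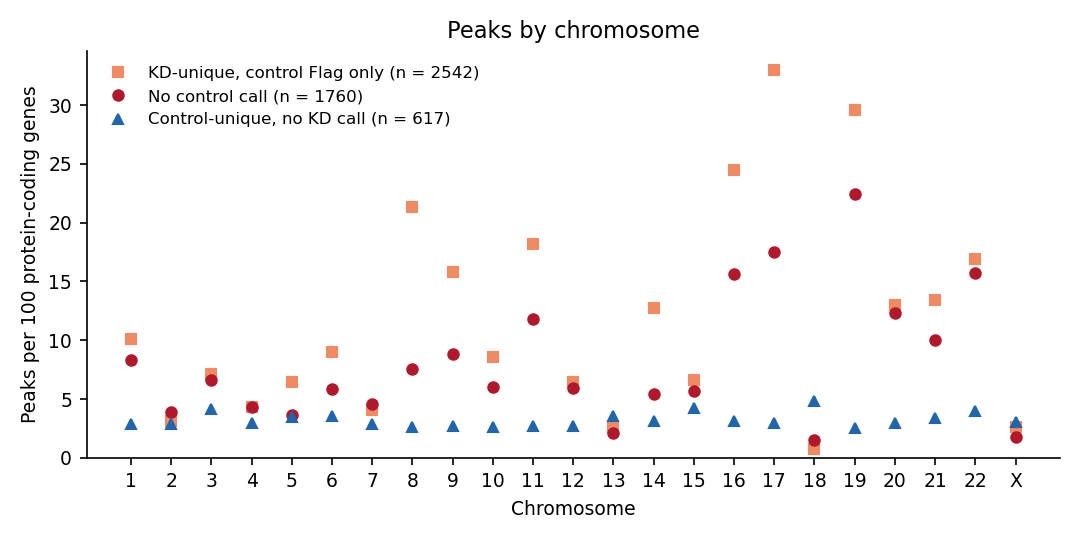
Peaks per 100 protein-coding genes on each chromosome for members (circles), knockdown-unique peaks with a control Flag call alone (squares) and control-unique peaks with no knockdown call (triangles). Members run from 1.48 on chromosome 18 to 22.4 on chromosome 19, and the control-unique class stays between 2.55 and 4.81.

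Many members had another member close by. In all, 48.9% of the 1760 members shared a 100 kb window with another, against 8.27% of the 617 peaks of the mirror class. This share rises with the number of peaks, and the classes were not compared at equal numbers. Windows with at least 4 members numbered 43 and held 185 of them. The median spacing was 109.2 kb, and 171 of 1737 spacings were under 10 kb.

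The richest window, chromosome 19 from 12900001 to 13000000, held 7 members of 277 to 820 bp, which overlapped SYCE2, FARSA and NFIX. NFIX is a transcription factor active in blood stem cells, and FARSA a subunit of phenylalanyl-tRNA synthetase. The same window held 7 shared intervals and 13 control anti-ETO, 26 knockdown anti-ETO, 22 control anti-Flag and 38 knockdown anti-Flag peaks. On chromosome 11 (65700001 to 65800000), 6 members of 311 to 996 bp were found, those in genes lying in OVOL1, a zinc-finger factor of epithelia, or LOC124902693. The window held 4 shared intervals, with 22 control and 51 knockdown anti-Flag peaks. On chromosome 19 (900001 to 1000000), 6 members touched R3HDM4, KISS1R, ARID3A and WDR18, and the window held 12 shared intervals. ARID3A is a DNA-binding protein of B cells and blood progenitors. Windows with 5 members included chromosome 11 from 500001 to 600000 (RNH1, LRRC56 and PHRF1) and chromosome 16 from 31100001 to 31200000 (with BCKDK and PRSS36 among the genes overlapped). Each of these 5 windows held at least 4 shared intervals. They were picked for their members, so the higher knockdown counts in them are a description and were not tested.

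The 10 widest members had antibody peaks of unequal width. A member is the union of its peaks, so ranking by its width favours members with 1 wide peak, and this inequality is a description. Anti-Flag was the wider peak in 8 of them, and 5 lay on chromosome 8 within 0.796 Mb. The widest, chr8:144119254-144121954, measured 2701 bp, all of it in the anti-Flag peak, with an anti-ETO peak of 526 bp; it lay 2275 bp from WDR97 and 675 bp from a control anti-Flag peak. The next, chr8:143700711-143702750, measured 2040 bp against 521 bp for anti-ETO. A member inside PARP10, a mono-ADP-ribosyltransferase, had 1635 bp of anti-Flag and 546 bp of anti-ETO. The exceptions were R3HDM4 (1022 bp of anti-ETO against 762 bp for the wider of 2 anti-Flag peaks) and a member 1089 bp from PTGES3 (chr12:56688558-56690189), a co-chaperone of HSP90. At PTGES3 the anti-ETO peak spanned 1632 bp and the anti-Flag peak 166 bp. Of the 54 members on chromosome 8, 47 lay beyond 140 Mb, a stretch that held 187 knockdown-unique intervals and 599 control anti-Flag peaks.

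Other wide members lay inside IQANK1 (1579 bp, with 282 bp of anti-ETO) and PPP1R16A (1515 bp, with 1042 bp of anti-ETO) on chromosome 8. Further ones lay inside OGFOD3 on chromosome 17 (1510 bp), KLHL17 on chromosome 1 (1479 bp) and CHKA on chromosome 11 (1455 bp). CHKA encodes choline kinase alpha. Its member had an anti-ETO peak of 868 bp and lay 23570 bp from a control peak, the widest gap among these 10.

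The most isolated members were of ordinary or small width. The one farthest from a control peak, 1840.2 kb, lay in ZNF18 on chromosome 17 (11997607 to 11997803) and measured 197 bp. One in WWOX (chr16:78099722-78100267), an oxidoreductase gene at a fragile site, was 908.6 kb from a control peak and 341 bp after the gene start. One before CXCL2 (chr4:74099135-74099558), a neutrophil-attracting chemokine, was 840.0 kb away, with its centre 151 bp outside the gene. CXCL2 has close relatives next to it, so its reads may be shared. Members in CDCA2 on chromosome 8 (25458975 to 25459388) and PYHIN1 on chromosome 1 (158952296 to 158952711) lay 674.6 and 665.8 kb from control peaks. Of these 5 isolated members, 4 had their centre within 1 kb of a gene start or end or, at ZNF18, 230 bp upstream of an annotated start, and the one in PYHIN1 was 20952 bp from a boundary.

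Over the genome, 1967 of 19974 protein-coding genes had a member in the body or within 10 kb (9.85%). One member was found for 1571 of these genes, and 76 had 3 or more. Most were genes that AML1-ETO calls already marked in control: 1526 of the 1967 (77.6%) also had a shared interval within 10 kb, against 35.1% of all protein-coding genes, and 148 (7.52%) had no control peak of either antibody within 10 kb. Among the 184 genes with a member at a promoter window, 36 (19.6%) had no control peak within 10 kb. Genes with a member in the body were longer (median 31.5 kb) than all protein-coding genes (24.2 kb).

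The gene with the most members in its body was GRB2, the adaptor that links receptor tyrosine kinases to RAS. It held 6 members among 8 knockdown-unique intervals, with 4 shared intervals, and its calls numbered 6 control and 14 knockdown anti-ETO peaks and 13 control and 34 knockdown anti-Flag peaks. SEPTIN9, a cytoskeletal septin of 219.1 kb, held 5. Genes with 4 included MARK2, a polarity kinase, ZBTB46, a zinc-finger factor of dendritic cells, RFX2 and GSE1. At ZBTB46 the control list held 1 anti-ETO and 12 anti-Flag peaks and the knockdown list 8 and 33. OVOL1, SYCE2 and RTEL1, a telomere helicase, held 3 each. OVOL1 stood apart from the other 9: its 10.2 kb body held no control peak of either antibody, and 3 anti-ETO and 4 anti-Flag peaks in knockdown.

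Lists of 104 genes linked to AML1-ETO and to blood cells, grouped by role, held 18 genes with a member within 10 kb. All 18 were among the 100 protein-coding ones (18.0%, against 9.85% of all protein-coding genes), whose median length was 31.4 kb. The lists were drawn up with earlier results of these data known, and 62 of the 100 genes had a shared interval, so the count is no evidence of its own.

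Among AML1-ETO and its partner factors, 4 of 15 genes had a member. ERG, an ETS factor of blood stem cells, had 1 of 291 bp in its body (chr21:38476633-38476923), 507784 bp from the nearest control peak; within 10 kb of ERG there were 0 control peaks and, in knockdown, 4 anti-ETO peaks and 1 anti-Flag peak. LDB1, the scaffold of LMO2 complexes, had one of 440 bp (chr10:102121418-102121857), 212 bp from a control anti-Flag peak. TCF3, the E protein E2A, had one of 407 bp. CBFB, the partner subunit of RUNX proteins, had one of 181 bp in its flank. RUNX1, RUNX1T1 and GATA2 had none.

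Of the 9 NCoR corepressor and histone deacetylase genes, 1 had a member within 10 kb. TBL1XR1 had none.

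Of the 17 myeloid and stem cell transcription factors, SPI1 and MYB had 1 each. SPI1 encodes PU.1, the master factor of myeloid cells; its member of 308 bp, with peaks of 308 bp for anti-ETO and 300 bp for anti-Flag, lay 778 bp from a control anti-Flag peak. MYB, a proto-oncogene of blood progenitors, had one of 216 bp (chr6:135195385-135195600), 14185 bp after its start and 11391 bp from a control peak.

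Neutrophil granule genes had members at 3 of 9. A member of 812 bp (chr19:845374-846185, anti-ETO 249 bp, anti-Flag 812 bp) and one of 490 bp (chr19:846942-847431, anti-ETO 175 bp, anti-Flag 476 bp) lay in PRTN3, the gene of proteinase 3. The same pair lies within 10 kb of its neighbour ELANE, neutrophil elastase, so those genes are not independent hits. LTF, lactoferrin, had one of 422 bp (chr3:46442543-46442964), 45661 bp from a control peak.

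Of 15 receptor and surface protein genes, 2 had members. ITGB2, the shared beta chain of leukocyte integrins, held 3 in its body (713, 566 and 232 bp), of which the widest had 647 bp of anti-ETO and 713 bp of anti-Flag and lay 6429 bp from a control peak. KIT, CSF1R and CD34 had no member.

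Signalling genes had members at 3 of 15. The NOTCH2 member has been given as the one nearest to a control peak. ID2, an inhibitor of E proteins, had one of 245 bp (chr2:8678952-8679196) with its centre 2982 bp from the gene start, upstream, and 14034 bp from a control peak. TGFB1 had one of 394 bp in its flank. In the cell cycle, survival and repair list 3 of 15 genes had one. The member at CCND3, a D-type cyclin, was 345 bp wide (chr6:41942352-41942696), with peaks of 340 and 341 bp, and lay 91 bp from a control anti-Flag peak. OGG1, a base excision repair glycosylase, had one of 591 bp, 6601 bp from a control peak. CDK6, MYC and BCL2 had none.

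None of the 9 microRNA and RNA regulator genes had a member. Of all 1911 annotated microRNA genes, 101 (5.29%) had one within 10 kb, and 1 member overlapped a microRNA gene, MIR762, at the BCL7C promoter (chr16:30893324-30894469, 1146 bp). MIR130A, the gene of the microRNA that was knocked down, had 0 peaks in each of the 4 single-antibody lists within 10 kb.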

How the data were processed

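Values analysed are positions only: the deposited interval lists hold chromosome, start and end in bp, with no score, p-value or depth. The submitters' processing notes name fastp 0.19.5, Bowtie2 2.3.5, MACS2 2.2.5, HOMER 4.8 and the builds hg38 and sacCer3, without roles. The peak threshold, the use of IgG libraries and the pooling of replicates are not given in the sources used here, and each changes which peaks exist.

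Overlaps, gaps and shares were computed in Python 3.11.15 (numpy 2.4.6, pandas 2.3.3, scipy 1.17.1) and tested on simulated intervals. Gene positions came from RefSeq, GRCh38.p14. Shares carry Wilson intervals for counting error over peaks. The 5 planned differences used two-sided Fisher's exact tests with Benjamini-Hochberg adjustment; the 2 on chromosomes are printed without a p. Named were the 10 widest and 5 most isolated members, the 5 richest 100 kb windows, the 10 genes with the most members, and listed genes with a member. Some genes that met these rules are not reported here. Members and lists were chosen with earlier results of these data known. Motifs were searched in promoter windows, as no genome was used here.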

Additional observations from a re-analysis of the deposited data

How the results depend on the processing

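With the knockdown lists cut to the widest peaks, as many as in control, 678 members were left in place of 1760. The other 3 alternatives gave between 1335 and 1813 members. The boundary difference against other knockdown-unique peaks no longer passed the test with those cut lists (-3.38 points, Fisher's exact p = 0.116), a boundary of 2.5 kb (-2.00, p = 0.192), protein-coding genes alone (-2.47, p = 0.0593) and without chromosomes 19, 17, 11 and 16 (-3.75, p = 0.0602, with fewer peaks). Against the mirror class it failed at 2.5 kb (-2.62, Fisher's exact p = 0.282) and passed under 7 other alternatives, at -6.22 to -26.7 points. The -26.7 came from the cut knockdown lists. The cut moved control-unique peaks with a call in the full knockdown lists into the mirror class, and 60.2% of such peaks were near a boundary. That run is therefore no support, and without it the passing differences ran from -6.22 to -13.3 points. The gene-dense share against other knockdown-unique peaks turned to 0.769 points for peaks of 300 to 800 bp and to 2.84 points with 1 peak per 100 kb window. Against the mirror class it stayed between 18.6 and 27.8 points under 4 alternatives. The RUNX difference did not pass with TGTGGT alone (-2.14), with at least 150 bp of overlap (-4.66, Fisher's exact p = 0.386), with control peaks within 500 bp counted (-7.29, p = 0.0502) or with 1 window per gene (-5.75, p = 0.122, chosen after seeing the data). Listed genes with a member numbered 29 within 50 kb (27.9% of the 104, against 19.5% of all protein-coding genes) and 13 in gene bodies (12.5% against 5.03%). In 50 kb windows 34.7% of members shared a window. The cause of these shifts was not tested. Peak width stood in for a score, the lists give no depth, and Fisher's tests treat neighbouring peaks as independent. No paired analysis was possible because each antibody and condition has a single list, with no replicate in it.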

Other observations

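Of the 148 protein-coding genes with a member but no control peak of either antibody within 10 kb, 9 had 2 members. They were chosen after their values were seen and are BRSK2, BTBD17, EP400, GPR142, LOC124900163, MUC2, TRMT2A, TTLL3 and TXNDC5. EP400 encodes a chromatin-remodelling ATPase of the TIP60 complex; within 10 kb of it there were 2 anti-ETO and 3 anti-Flag peaks in knockdown. TXNDC5, a protein disulfide isomerase of the endoplasmic reticulum, had 2 peaks of each antibody in knockdown. MUC2, an intestinal mucin, had 5 of each. BTBD17 and GPR142, both on chromosome 17, had 2 peaks of each antibody, as did TTLL3.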
